A study of Mus musculus with 4 samples.

Results

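The cytochrome P450 genes of families 2 and 3 were examined in liver RNA from mice with diet-induced obesity (DIO) that had received GALP through the nose. The members are all array probes, control spots excepted, whose gene name in the scanner files is Cyp2 or Cyp3 followed by 1 lower-case letter and a number. This gave 67 probes of 45 genes out of 41174 probes on the whole array, in 13 subfamilies named by that letter. The names Cyp2ab1 and Cyp3a41a do not have this form and are not members. GALP is galanin-like peptide, a hypothalamic neuropeptide that affects feeding and body weight. Male C57BL/6 mice, named C57BL/6J in the tissue labels, were bought at 8 weeks of age and kept on a high-fat diet over 14 weeks, and those of 40 g or more were used. The treated mice received porcine GALP (1-60) at 1 nmol in saline with 5% α-cyclodextrin, and the control mice received saline, each as 2 µL in the nose on 11 consecutive days. Before this both groups were acclimatized, for 2 weeks per the labels. The study's methods give 1 week, with 2 µL of saline in the nose each day. RNA of 4 GALP-treated mice that lost more weight made the greater weight loss pool, RNA of 4 that lost less made the less weight loss pool, and RNA of 8 saline-treated mice made the control pool. All mice were obese and on the diet, so the ratios set GALP against saline within obesity and hold no lean animal.

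Cytochromes P450 are haem proteins, and those of families 2 and 3 sit in the endoplasmic reticulum of hepatocytes. They insert an oxygen atom into drugs, steroids, fatty acids and bile acids, and they draw the electrons for it from NADPH through the reductase Por. The subfamilies with several genes arose by repeated gene duplication, so most of their genes lie in clusters and are close in sequence. Many are under the nuclear receptors CAR (constitutive androstane receptor, Nr1i3) and PXR (pregnane X receptor, Nr1i2), which respond to drugs and to internal metabolites, and in mice several differ between male and female liver.

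On 2 two-colour Agilent arrays for each GALP pool, the pool and the control were labelled with Cy3 and Cy5 in both orientations. The 4 arrays were on 1 slide. Values are log2 ratios of GALP over control, so that 0 is no difference and 1 is a doubling. The array with GALP in Cy5 is given first and that with GALP in Cy3 second. The 2 arrays of a pool carry the same extracts and were averaged, and a mean ± SD is over n = 2 GALP pools. Only 1 control pool exists per the study's methods, so the spread between control samples is part of no SD or test, and nothing here measures the spread between mice. Of the spots in a channel, 40.5% to 46.7% were well above background, no spot was saturated, and 232 to 319 spots an array carried an outlier mark and were left out. A probe "with signal" had a value on all 4 arrays and, on each array, stood well above background in the GALP channel, the control channel or both. This held for 51 member probes of 37 genes, against 15724 probes of the whole array. Another 13 member probes had a value on all 4 arrays without signal, and 3 had lost 1 array to an outlier mark.

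The probes are 60 bases long, and the values depend on which gene copy each of them reads. The probes of the Cyp2b subfamily are shown first because the largest ratios came from them. No run longer than 8 bases was shared by any of the 15 pairs of these 6 probes, so no part is in capitals. These probes were compared only with other probes and not with transcripts, so whether RNA of another gene binds them was not tested. Positions are on mm9 as the scanner files give them, all on the plus strand of chromosome 7, and a probe with a long span crosses an exon junction.
Cyp2b10, A_52_P472486, chr7:26702056-26702115: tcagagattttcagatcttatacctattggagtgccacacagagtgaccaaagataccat
Cyp2b10, A_51_P182362, chr7:26702417-26711087: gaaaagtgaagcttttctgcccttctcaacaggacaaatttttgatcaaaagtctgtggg
Cyp2b13, A_51_P492339, chr7:26873757-26880713: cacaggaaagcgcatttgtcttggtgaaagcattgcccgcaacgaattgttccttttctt
Cyp2b13, A_52_P289091, chr7:26880905-26880964: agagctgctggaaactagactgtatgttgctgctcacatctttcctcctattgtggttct
Cyp2b9, A_52_P256914, chr7:26983484-26983543: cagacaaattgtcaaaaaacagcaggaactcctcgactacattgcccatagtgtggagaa
Cyp2b9, A_51_P467076, chr7:26995607-26995666: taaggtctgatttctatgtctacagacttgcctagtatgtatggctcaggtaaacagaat

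Probes of different genes that match at 80% or more over at least 25 aligned bases are shown next, since RNA of one gene may bind the probe of the other. In each pair the capitals mark the bases that match when the probes are laid over each other. The Cyp2a4 and Cyp2a5 probes match at 35 of 38 aligned bases, the Cyp2c40 and Cyp2c54 probes at 38 of 46, and the Cyp2j11 and Cyp2j13 probes at 28 of 30. The values of this Cyp2a4 probe and of the Cyp2a5 probe may therefore not be separate readings, which was not tested. The other 2 Cyp2a4 probes share no such stretch with the Cyp2a5 probe. They were not compared with the Cyp2a5 transcript, so whether they read Cyp2a4 alone was not tested.
Cyp2a4, A_51_P377154, chr7:27099972-27100031, plus strand: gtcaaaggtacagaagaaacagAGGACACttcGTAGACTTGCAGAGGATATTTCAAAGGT
Cyp2a5, A_52_P246252, chr7:27628169-27628228, plus strand: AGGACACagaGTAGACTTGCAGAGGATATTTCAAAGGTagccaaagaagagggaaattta
Cyp2c40, A_52_P200121, chr19:39861388-39877026, minus strand: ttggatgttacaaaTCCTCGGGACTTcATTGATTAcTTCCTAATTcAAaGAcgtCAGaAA
Cyp2c54, A_52_P154580, chr19:40122119-40144700, minus strand: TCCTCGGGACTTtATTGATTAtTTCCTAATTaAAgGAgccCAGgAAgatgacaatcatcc
Cyp2j11, A_51_P423085, chr4:95964317-95964376, minus strand: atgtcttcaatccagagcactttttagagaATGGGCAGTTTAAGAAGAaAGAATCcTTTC
Cyp2j13, A_51_P476481, chr4:95712305-95723288, minus strand: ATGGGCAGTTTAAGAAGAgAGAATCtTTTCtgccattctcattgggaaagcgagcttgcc

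The ratios were above 0 for Cyp2a and Cyp2b and near 0 for the large Cyp2c, Cyp2d and Cyp3a subfamilies. Over the 12 Cyp2a and Cyp2b probes with signal, which read 7 genes, the median log2 ratio was 0.44 in the greater and 0.70 in the less weight loss pool. Over the 39 other members with signal it was -0.06 and -0.04, and over all 15724 probes with signal it was -0.02 and -0.03. Of the members with signal, 16 of 51 (31.4%) were above 0 on all 4 arrays, beside 11.4% of all probes with signal, and 11 of these 16 were Cyp2a or Cyp2b probes. Below 0 on all 4 arrays were 3 of 51 (5.88%), beside 15.7% of all probes with signal. The single exception among the 12 was Cyp2a12, which was at -0.03 on 1 array. Feature Extraction, the software that read the scans, gave a p under 0.01 on at least 1 array for 11 of the 12 Cyp2a and Cyp2b probes and for 2 of the 39 others, which were Cyp2r1 and Cyp2u1. Such a p compares the labelled extracts on 1 array and not the treatments. The share of all probes with signal that reach it on at least 1 array was not counted, so these counts cannot be set against the array.

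**Figure D1:**
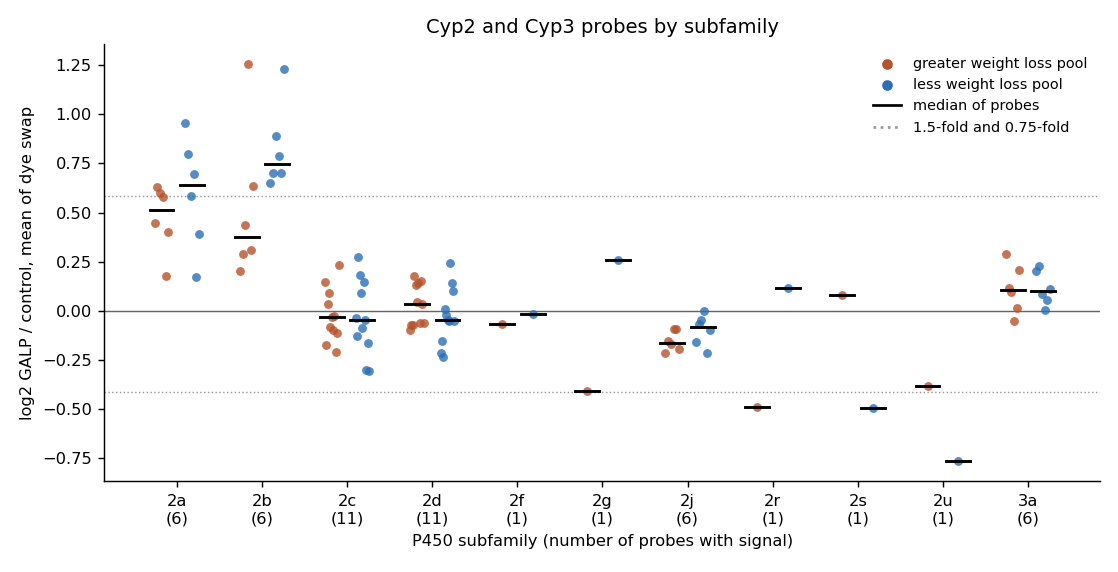
Log2 ratio of GALP over control (vertical axis) of the 51 Cyp2 and Cyp3 probes with signal, by subfamily (horizontal axis, with the number of probes), with 1 point per probe and pool, bars at the medians and dotted lines at 1.5-fold and 0.75-fold. The Cyp2a and Cyp2b points lie above 0 in both pools, with medians of 0.51 and 0.37 in the greater and 0.64 and 0.75 in the less weight loss pool, while the Cyp2c, Cyp2d, Cyp2j and Cyp3a medians lie between -0.16 and 0.10.

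The study's threshold was applied as a p under 0.01 and the same direction on all 4 arrays with a ratio in each pool above 1.5 or below 0.75. By it 1 member of 64 with a value on all arrays was called higher, beside 0.0585% of all probes, and 0 were called lower, beside 0.132%. The called probe was A_52_P289091 of Cyp2b13. The study's own pathway results list Cyp2b13 and Cyp2b10 among the higher and Cyp2c66 among the lower genes. On how many arrays its threshold had to hold is not stated. In the greater weight loss pool alone, 2 members (Cyp2b10 and Cyp2b13) were called higher, beside 0.292% of all probes, and 0 lower, beside 0.395%. In the less weight loss pool alone, 7 probes of Cyp2a4, Cyp2a5, Cyp2b9 and Cyp2b13 were called higher, beside 0.234%, and 1 probe (Cyp2u1) was called lower, beside 0.363%. A fit with limma on the 2 pool ratios gave 0 members with an adjusted p under 0.05, beside 0.0% of all probes. The adjusted p of the Cyp2a and Cyp2b probes with signal lay between 0.374 and 0.678 (limma, Benjamini-Hochberg over 41037 probes). At an unadjusted limma p under 0.05 there were 8 members higher, beside 4.99%, and 5 lower, beside 6.6%. The higher ones were probes of Cyp2a4, Cyp2a5, Cyp2a12, Cyp2a22, Cyp2d22, Cyp3a11 and Cyp3a16, and none was a Cyp2b probe. The lower ones were probes of Cyp2c29, Cyp2c54, Cyp2c66, Cyp2j5 and Cyp2j13, of which those of Cyp2c66 and Cyp2j13 were at background in every channel. With normexp background correction and loess, 2 of 64 members passed the adjusted limma threshold, beside 0.231% of all probes, a Cyp2a5 probe (adjusted p = 0.0328, limma) and a Cyp2a4 probe (adjusted p = 0.0414, limma).

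The Cyp2a enzymes hydroxylate steroids and small aromatic compounds, and all 6 of their probes had signal. Cyp2a5 is the coumarin and nicotine hydroxylase of mouse liver and a CAR target. Its probe was at 0.63 and 0.53 in the greater weight loss pool and 0.75 and 0.64 in the less weight loss pool, a mean of 0.64 ± 0.08 (SD, n = 2). Cyp2a4 is a testosterone hydroxylase that is higher in female liver, and it had 3 probes. Probe A_52_P246255 was at 0.73 and 0.54 in the greater and 0.89 and 0.71 in the less weight loss pool, with a mean of 0.71 ± 0.12 (SD, n = 2), the largest of the subfamily. Probe A_52_P9703 was at 0.52 and 0.68 in the greater and 0.51 and 0.65 in the less weight loss pool, with a mean of 0.59 ± 0.01 (SD, n = 2). The third, A_51_P377154, which shares sequence with the Cyp2a5 probe, was at 0.46 and 0.44 in the greater and 0.96 and 0.95 in the less weight loss pool, 0.70 ± 0.36 (SD, n = 2). The lowest array of these 4 probes was at 0.44. The pools overlapped for A_52_P246255 and A_52_P9703, were just apart for Cyp2a5 and lay well apart for A_51_P377154, each time with the less weight loss pool the higher where they did not overlap. Its first 20 bases are also the last 20 of A_52_P246255, so these probes overlap on the transcript. Cyp2a22 was at 0.51 and 0.29 in the greater and 0.22 and 0.57 in the less weight loss pool, 0.40 ± 0.0049 (SD, n = 2). Cyp2a12, a testosterone and bile acid hydroxylase, was at 0.03 and 0.33 in the greater and -0.03 and 0.37 in the less weight loss pool, 0.18 ± 0.0029 (SD, n = 2). With GALP in Cy5 alone the mean of Cyp2a12 was 0.0015. Its arrays of each pool lay far apart, with GALP in Cy3 the higher, while the pool means nearly coincided, so the SD over pools leaves out a larger difference between dye orientations.

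The Cyp2b enzymes include the classical phenobarbital-inducible P450 of mouse liver, Cyp2b10, which is the reference target gene of CAR. The 6 probes of Cyp2b9, Cyp2b10 and Cyp2b13 had signal and all were above 0 on all 4 arrays. Probe A_52_P472486 of Cyp2b10 had the highest mean of all members, with 1.54 and 0.97 in the greater and 0.91 and 0.67 in the less weight loss pool, 1.02 ± 0.33 (SD, n = 2). Its processed signal was 197 and 115 with GALP against 67.7 and 58.9 in the control on the greater weight loss arrays, and 139 and 114 against 74.1 and 71.9 on the less weight loss arrays. The other Cyp2b10 probe, A_51_P182362, was at 0.77 and 0.11 in the greater and 1.14 and 0.64 in the less weight loss pool, 0.66 ± 0.32 (SD, n = 2). On the array at 0.11, its p in Feature Extraction was 0.65. Both Cyp2b10 probes were above 0 on all 4 arrays, but they ranked the pools in opposite order. Both gave a larger ratio when GALP carried Cy5, by 0.58 for A_51_P182362 and 0.40 for A_52_P472486. With normexp background correction and loess the means were 0.23 for A_52_P472486 and 0.21 for A_51_P182362. The scanner file ties A_51_P182362 to an Ensembl transcript that the RefSeq table did not match, and A_52_P472486 to the RefSeq mRNA.

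Cyp2b9 and Cyp2b13 are steroid-hydroxylating enzymes known as higher in female than in male mouse liver. Probe A_52_P289091 of Cyp2b13, called in both pools, was at 0.66 and 0.61 in the greater and 1.38 and 1.08 in the less weight loss pool. Its mean was 0.93 ± 0.42 (SD, n = 2), a ratio of 1.91, and its p on single arrays lay between 8.28e-09 and 0.00412 in Feature Extraction (limma adjusted p = 0.531). The second Cyp2b13 probe, A_51_P492339, was at 0.25 and 0.38 in the greater and 0.57 and 0.83 in the less weight loss pool, 0.51 ± 0.27 (SD, n = 2). The difference of 0.43 between the means of these 2 probes was the widest within any gene among the 12 genes with several probes with signal, where the narrowest was 0.02. Probe A_51_P467076 of Cyp2b9 was at 0.24 and 0.16 in the greater and 0.73 and 0.57 in the less weight loss pool, 0.43 ± 0.32 (SD, n = 2). Probe A_52_P256914 of Cyp2b9 was at 0.45 and 0.14 in the greater and 0.74 and 0.66 in the less weight loss pool, 0.50 ± 0.29 (SD, n = 2). On all 4 probes of Cyp2b9 and Cyp2b13, both arrays of the less weight loss pool lay above both arrays of the greater weight loss pool. This held for 11 of the 51 members with signal (21.6%), beside 11.4% of all probes with signal. The Cyp2b19 and Cyp2b23 probes were not measured: both Cyp2b19 probes were at background in every channel, and the Cyp2b23 probe was well above background in 3 of 8 channels with ratios of opposite sign.

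**Figure D2:**
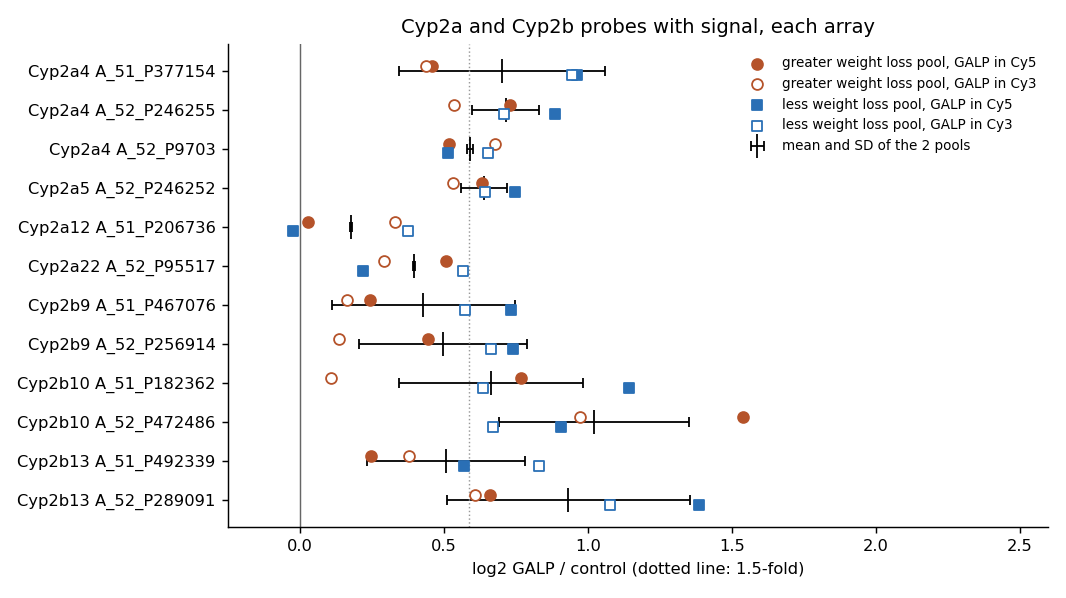
Log2 ratio of GALP over control (horizontal axis) of each Cyp2a and Cyp2b probe with signal on each of the 4 arrays, with circles for the greater and squares for the less weight loss pool, filled where GALP was in Cy5, and black marks for the mean and SD of the 2 pools. Every point lies above 0 but 1 of Cyp2a12 at -0.03, the highest is Cyp2b10 at 1.54, and the Cyp2b9 and Cyp2b13 squares lie to the right of the circles.

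The Cyp2a and Cyp2b genes lie in 1 cluster with Cyp2f, Cyp2g and Cyp2s genes, and the neighbours did not share their ratios. The probes of the 12 member genes of this cluster lie between 26587504 and 27918629 on chromosome 7. In order along the chromosome they are Cyp2s1, Cyp2b10, Cyp2b13, Cyp2b9, Cyp2a4, Cyp2b23, Cyp2b19, Cyp2g1, Cyp2a5, Cyp2a22, Cyp2a12 and Cyp2f2. Cyp2f2, which activates naphthalene and marks periportal hepatocytes, was at 0.03 and -0.17 in the greater and 0.11 and -0.14 in the less weight loss pool, -0.04 ± 0.04 (SD, n = 2). Cyp2g1, an enzyme of the olfactory mucosa, was at -0.43 and -0.39 in the greater and -0.0028 and 0.52 in the less weight loss pool, -0.07 ± 0.47 (SD, n = 2), on processed signals of 58.5 to 114. Cyp2s1, a P450 found mainly outside the liver, was at 0.29 and -0.13 in the greater and 0.11 and -1.09 in the less weight loss pool, -0.21 ± 0.40 (SD, n = 2). On the last array the GALP channel of Cyp2s1 was not well above background (signal 36.2), and neither was the control channel of Cyp2g1 (58.5), so these ratios are not exact. At both ends of the cluster, and at Cyp2g1 between Cyp2a4 and Cyp2a5, the signs differed between arrays.

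**Figure D3:**
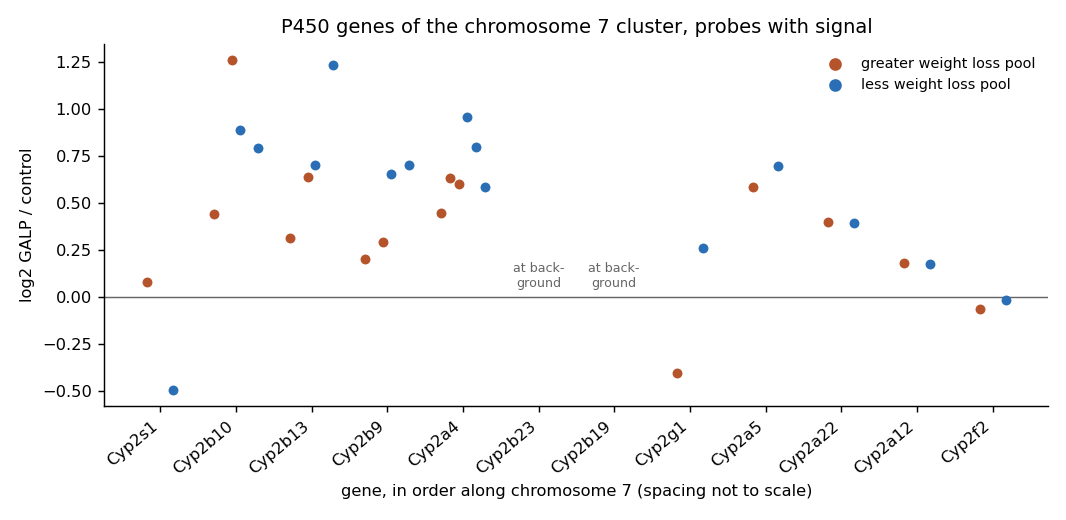
Log2 ratio of GALP over control (vertical axis) of the probes with signal of the 12 P450 genes of the chromosome 7 cluster, in their order along the chromosome with equal spacing, in the greater (brown) and less (blue) weight loss pool. The 7 Cyp2a and Cyp2b genes with signal lie above 0 in both pools, Cyp2s1, Cyp2g1 and Cyp2f2 do not, and Cyp2b23 and Cyp2b19 have no probe with signal.

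The Cyp2c subfamily on chromosome 19 holds epoxygenases of arachidonic acid, CAR and PXR targets and a bile acid enzyme, and 0 of its probes were called. The means of its 11 probes with signal lay between -0.26 and 0.16, with a median of -0.03 in the greater and -0.04 in the less weight loss pool. The lowest was Cyp2c54, at -0.33 and -0.09 in the greater and -0.32 and -0.28 in the less weight loss pool, -0.26 ± 0.07 (SD, n = 2). It was the only Cyp2c probe with signal below 0 on all 4 arrays. The highest was Cyp2c37, where probe A_51_P498882 was at -0.24 and 0.31 in the greater and 0.10 and 0.45 in the less weight loss pool, 0.16 ± 0.17 (SD, n = 2). The second Cyp2c37 probe was above 0 on all 4 arrays with a mean of 0.14 ± 0.06 (SD, n = 2). Cyp2c29, a drug and arachidonate oxidising enzyme and a CAR target, was at -0.29 and -0.06 in the greater and -0.26 and 0.01 in the less weight loss pool. Cyp2c70 makes muricholic acids, the bile acids of the mouse, and it was at 0.28 and 0.18 in the greater and -0.18 and -0.43 in the less weight loss pool. So Cyp2c70 lay above 0 in one pool and below it in the other, a pattern of 4 of the 51 members with signal, beside 5.81% of all probes with signal.

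The Cyp2d subfamily on chromosome 15 metabolises drugs and steroids, and all 11 of its probes had signal and none was called. Their means lay between -0.16 and 0.15, and their median was 0.03 in the greater and -0.04 in the less weight loss pool. Cyp2d9, a steroid hydroxylase of male liver, was at -0.24 and 0.04 in the greater and -0.51 and 0.08 in the less weight loss pool at probe A_51_P124133. Its second probe, which shares 27 bases with the first, was at -0.11 and -0.04 in the greater and -0.33 and 0.02 in the less weight loss pool. Both probes were lower on the arrays with GALP in Cy5. Cyp2d22, the mouse gene often compared with the human drug-metabolising CYP2D enzyme, had the highest mean of the subfamily at probe A_52_P49391. That probe was at 0.27 and 0.03 in the greater and 0.22 and 0.07 in the less weight loss pool, 0.15 ± 0.01 (SD, n = 2).

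Cyp3a enzymes on chromosome 5 oxidise steroids, bile acids and many drugs, and the lowest of their 6 probes with signal had a mean of -0.03. Cyp3a11, the main PXR target of mouse liver, was at 0.22 and 0.36 in the greater and 0.11 and 0.29 in the less weight loss pool, 0.24 ± 0.06 (SD, n = 2). This was the highest Cyp3a mean, and the p of Feature Extraction on its 4 arrays was 0.0851 or more. Cyp3a13, Cyp3a44 and Cyp3a11 were above 0 on all 4 arrays, with means of 0.17, 0.16 and 0.24. Cyp3a25, an enzyme that hydroxylates testosterone, was at -0.15 and 0.04 in the greater and -0.09 and 0.10 in the less weight loss pool at probe A_51_P489367. Its second probe had a mean of 0.04, and the signs differed between arrays for both. No interval over mice can be given from pools, so a change of the size seen at Cyp3a11 cannot be set against the spread between animals.

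The Cyp2j subfamily on chromosome 4 makes epoxides of arachidonic acid, and all 6 of its probes with signal had a mean below 0, between -0.19 and -0.05. Cyp2j5, its main member in liver and kidney, was at -0.28 and -0.15 in the greater and -0.09 and -0.23 in the less weight loss pool at probe A_51_P307872, -0.19 ± 0.04 (SD, n = 2). The median of all probes with signal was itself below 0, and none of the 6 reached 0.75-fold. Cyp2e1, the ethanol-oxidising P450 of pericentral hepatocytes, was at 0.0044 and 0.05 in the greater weight loss pool and 0.14 on the single array of the less weight loss pool without an outlier mark. Its processed signal was 3000 to 5840 over the 4 arrays.

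The remaining subfamilies have 1 gene each. Cyp2u1, a fatty acid hydroxylase on chromosome 3, had the lowest mean of all members with signal. It was at -0.50 and -0.27 in the greater and -0.68 and -0.85 in the less weight loss pool, -0.57 ± 0.27 (SD, n = 2). All 4 arrays were below 0, and both arrays of the less weight loss pool were the lower. The mean was -0.25 with normexp background correction, on processed signals of 225 to 427. Cyp2r1, which hydroxylates vitamin D, was at -0.62 and -0.37 in the greater and -0.39 and 0.61 in the less weight loss pool. On the 2 dye arrays of the less weight loss pool its sign thus turned, with a p of Feature Extraction of 0.063 and 0.00385.

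Members at background are known here only as that. Both probes of Cyp2j11, 1 of 2 probes of Cyp2s1, 2 of 3 probes of Cyp2j13, the probe of Cyp2w1, a P450 of the fetal gut, and that of Cyp2c66 were not well above background in any of 8 channels. The probes of Cyp2c65 and Cyp3a57 and the second Cyp3a44 probe were well above background in 2 channels each, those of the same array. Cyp2c65 and Cyp2c66 are P450s of the gastrointestinal tract. The scanner listed Cyp2c65 at -1.73 and -2.27 in the greater and -0.36 and 0.39 in the less weight loss pool, with both channels at background on every array but the last. Cyp2c66 was listed at -0.64 and -1.43 in the greater and -0.60 and -1.20 in the less weight loss pool, with a p of Feature Extraction of 0.24 or more on each array. Beside this, the small intestine markers Sis and Alpi, a disaccharidase and an alkaline phosphatase, were well above background in 4 and 3 of 4 control channels and in 1 and 0 of 4 GALP channels. Of the other intestinal markers, Lct, Vil1, Cdx1 and Cdx2 were at background in all 8 channels and Muc2 was well above it in 2, those of 1 array. Fabp2 and Lyz1 had signal in all 8 channels. Fabp2 was at -0.36 and -0.20 in the greater and -0.23 and -0.15 in the less weight loss pool, and Lyz1, a lysozyme, at 0.65 and 0.60 in the greater and 0.10 and -0.03 in the less weight loss pool. The markers at background in all channels could show no direction. Among the others, the means of Sis (-1.34), Alpi (-1.75) and Fabp2 (-0.24) were below 0. Those of Lyz1 (0.33) and Muc2 (0.36, from 1 array) were above 0. The means of Sis and Alpi are not exact, since GALP was at background on most or all arrays. Whether tissue other than liver contributed to these values was not tested.

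The 2 GALP pools were also set against each other. Both ratios share the control pool and each pool is 1 sample, so these differences have no test. Of 51 members with signal, 6 were lower in the greater than in the less weight loss pool by more than the 0.75-fold limit, beside 3.61% of all probes with signal. None was higher by over 1.5-fold, beside 1.84%. The 6 probes were those of Cyp2g1 (difference -0.67), Cyp2r1 (-0.61), Cyp2b13 A_52_P289091 (-0.60), Cyp2a4 A_51_P377154 (-0.51), Cyp2b10 A_51_P182362 (-0.45) and Cyp2b9 A_51_P467076 (-0.45). For Cyp2g1 the control was at background on 1 array of the less weight loss pool, so its difference is not exact. The other Cyp2b9 and Cyp2b13 probes were at -0.41 and -0.39. The largest differences the other way were at Cyp2c70 (0.54) and Cyp2b10 A_52_P472486 (0.47), beside a value of 0.57 at Cyp2s1 that rests on the array with GALP at background. With normexp background correction and loess, 2 of the 51 passed the 0.75-fold limit in place of 6.

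**Figure D4:**
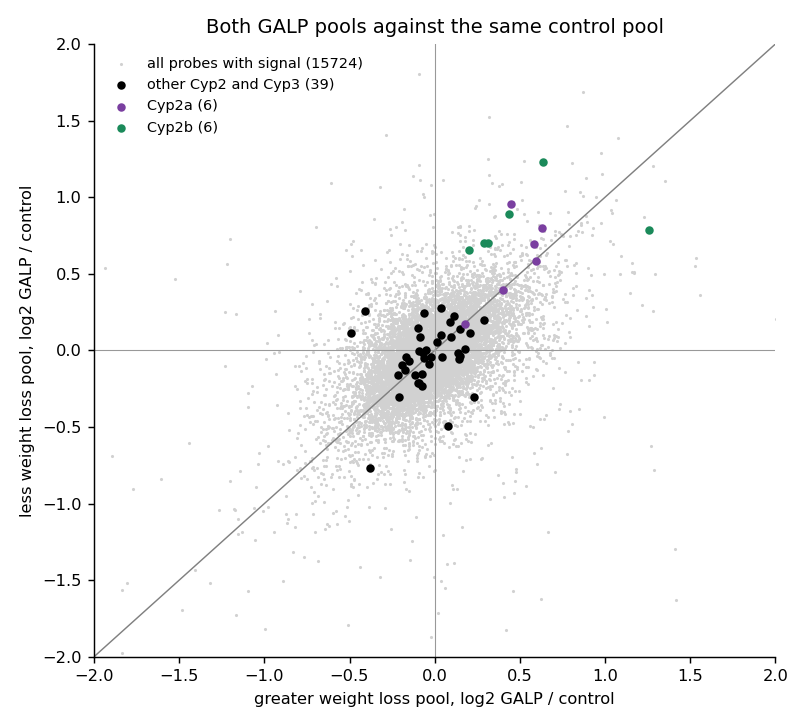
Log2 ratio of GALP over control in the greater (horizontal axis) and the less (vertical axis) weight loss pool, with 1 point per probe, grey for all 15724 probes with signal and coloured for the members, and 86 grey probes beyond ±2 not drawn. The pools share the control, which alone places points along the diagonal line of equal ratios; the 12 Cyp2a and Cyp2b points lie in the upper right, and 5 of the 6 Cyp2b points lie above the line.

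The genes around the P450 system were described from lists, at the brightest probe of each gene. Beside every count of a list stand the shares over the whole array, where 11.4% of probes with signal were above 0 and 15.7% below 0 on all 4 arrays and 0.0585% of probes were called higher. Of 9 P450 genes under CAR or PXR with signal, 5 were above 0 on all 4 arrays (Cyp2a5, Cyp2b9, Cyp2b10, Cyp3a11 and Cyp3a13), 1 was below 0 on all 4 (Cyp2c54), and 0 were called. Their median was 0.12 in the greater and 0.23 in the less weight loss pool. So within this list the Cyp2a and Cyp2b targets stood at 0.43 to 0.66, and of the Cyp2c targets Cyp2c29, Cyp2c54 and Cyp2c55 stood at -0.15, -0.26 and -0.14 and Cyp2c37 at 0.16. Of 8 female-biased P450 genes with signal, 5 were above 0 on all 4 arrays (Cyp2a4, Cyp2b9, Cyp2b13, Cyp3a41a and Cyp3a44) and 0 below, with 0 called at the brightest probe. Their median was 0.20 in the greater and 0.13 in the less weight loss pool. The signs differed between arrays for the others, Cyp2c39, Cyp2c40 and Cyp3a16, with means of 0.02, -0.03 and 0.09. Of 5 male-biased P450 genes, 0 were above 0 and 2 were below 0 on all 4 arrays (Cyp2u1 and Cyp4a12a), with a median of -0.07 in the greater and -0.59 in the less weight loss pool. Cyp7b1, an oxysterol hydroxylase, was at 0.02 and 0.06 in the greater and -0.61 and -0.58 in the less weight loss pool. Bcl6, a repressor known to hold female-biased genes down in male liver, was at 0.27 and 0.05 in the greater and -0.98 and -1.32 in the less weight loss pool. At both genes the arrays of the less weight loss pool were below 0 and those of the greater weight loss pool were not. Of 10 epoxygenase genes, 0 were above 0 on all 4 arrays and 1 (Cyp2c54) was below.

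Por, the reductase that passes electrons to all microsomal P450s, was called higher. It was at 0.88 and 0.89 in the greater and 0.89 and 0.87 in the less weight loss pool, 0.88 ± 0.0049 (SD, n = 2), with a p of Feature Extraction of 7.27e-05 or less on each array. Alas1, the rate-limiting enzyme of haem synthesis, was at 0.38 and 0.49 in the greater and 0.73 and 0.69 in the less weight loss pool, 0.57 ± 0.20 (SD, n = 2), and was not called over both pools. Por was the only one of 15 genes for electron donors and haem synthesis with signal to be called, and the list's median was -0.07 and 0.0016. The haem enzymes Alad, Uros, Urod, Cpox, Ppox and Fech had means between -0.12 and 0.05, and cytochrome b5 (Cyb5a) was at -0.06. Among 18 other xenobiotic genes with signal, 1 was called higher: Sult1e1, the oestrogen sulphotransferase, at 0.67 and 0.88 in the greater and 1.57 and 1.36 in the less weight loss pool. Gsta1, a glutathione transferase, was at 0.70 and 0.84 in the greater and 0.49 and 0.69 in the less weight loss pool, with a p of 0.0183 in Feature Extraction on 1 array. Of 23 transcription factors with signal 0 were called, 7 were above 0 and 1 (Ppargc1a) was below 0 on all 4 arrays. The receptors themselves were at 0.23 ± 0.17 for Nr1i3 and 0.13 ± 0.02 for Nr1i2 (SD, n = 2), and the clock-controlled factors Dbp, Tef and Hlf, which drive several P450 genes, were at 0.22, 0.46 and 0.31.

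**Figure D5:**
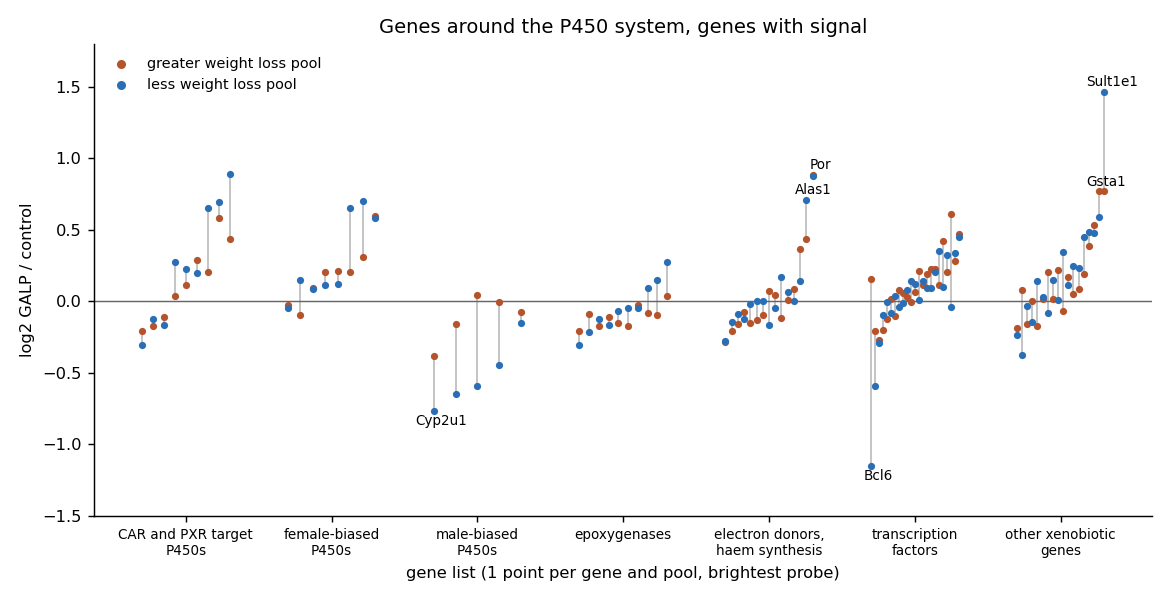
Log2 ratio of GALP over control (vertical axis) of the genes with signal in 7 lists around the P450 system (horizontal axis), with 1 brown point for the greater and 1 blue point for the less weight loss pool per gene, joined by a line. Por lies near 0.88 in both pools, Sult1e1 at 0.77 and 1.47, and Bcl6 at 0.16 and -1.15, while most epoxygenases and haem enzymes lie near 0.

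The liver label was checked against marker genes. The 5 hepatocyte markers on the array had signal in all 8 channels, and their medians were 0.00298 in the greater and 0.02 in the less weight loss pool. Markers of kidney tubule and of lung, where Cyp2j and Cyp2f genes are also active, had 0 genes with signal. The pericentral markers, around which many Cyp2 genes are known to be expressed, had a median of -0.08 in the greater and -0.01 in the less weight loss pool, and the periportal ones of 0.35 and -0.03, over 7 genes each. Lgr5, a pericentral and intestinal marker, was at -0.69 and -0.83 in the greater and -0.51 and -0.80 in the less weight loss pool. Its control signal was 138 to 169. The other pericentral markers with signal had means between -0.14 (Glul) and 0.15 (Slc1a2). The mean log2 signal of the 7 pericentral genes was 10.87 to 11.3 in the GALP channels and 11.04 to 11.45 in the control channels. In pooled liver RNA, a change in the number of cells of a kind and a change in RNA per cell cannot be told apart.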

How the data were processed

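The authors hybridised GALP and control liver RNA to 4 two-colour Agilent arrays on 1 slide. The processed intensity of each channel was made, per the file headers, with Feature Extraction 12.0.3.1 (the submitters' processing notes name 11.0.1.1) by background correction and LOWESS dye normalization. The deposited log10 ratio is that of Cy5 over Cy3, and the deposited p-value comes from the software's error model on 1 array. In the deposited series table these log10 ratios have GALP as the numerator on every array, and it served as an alternative. For this work ratios were put as GALP over control on the log2 scale. Outlier spots were left out, spots of a probe averaged, and the 2 arrays of a pool averaged (n = 2 pools). Precision is limited by the number of arrays. The labels put control channels in weight loss groups as well. The control was treated as 1 pool, as the study's methods describe it. On how many arrays the threshold of the methods must hold is not stated there, and all 4 were required.

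The test was limma 3.58.1 (R 4.3.3, lmFit and eBayes against 0, two-sided, 1 residual degree of freedom) with Benjamini-Hochberg adjustment over 41037 probes. Members and lists were chosen with earlier results of these data known. Probes named are those called over both pools or in 1 pool, the highest and lowest mean of each subfamily, list members, and genes whose probes differ by over 0.5 (none did). Cyp2c70 and the neighbours on chromosome 7 were added after their values were seen. Accessions of 63 of 67 probes matched a RefSeq table (GRCm38.p6), used for names only. Alternatives were other p rules and folds, normexp (offset 50) with loess, centring, no outlier filter, a signal filter, the series table, each dye orientation, each pool left out, all member probes, 1 probe per gene and, for limma, an intensity trend. Python 3.11.15, numpy 2.4.6, pandas 2.3.3 and matplotlib 3.10.9 were used.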

Additional observations from a re-analysis of the deposited data

Results flagged for a closer look

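At 4 Cyp2c probes both arrays of one pool lay above 0 and both arrays of the other below 0, which held for 5.81% of all probes with signal. The difference of the greater minus the less weight loss pool on the log2 scale was 0.54 for Cyp2c70, 0.18 for Cyp2c23, -0.24 for Cyp2c39 and -0.17 for 1 of 2 Cyp2c38 probes. The difference was not tested, since each pool is 1 sample.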

How the results depend on the processing

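The medians of Cyp2a (0.61) and Cyp2b (0.58) lay between 0.49 and 0.64 and between 0.37 and 0.77 under the alternatives run, and none of the 12 Cyp2a and Cyp2b probes with signal had a mean below 0 under any of them. The number of these probes above 0 on every array used, 11, was 11 or 12. The number of members called higher, 1, was 3 with the p asked on 1 array of each pool, 3 without a p (1 then called lower in place of 0), 5 from GALP in Cy5 alone and 2 from GALP in Cy3 alone. Leaving out 1 pool gave 2 to 7 called higher and 0 to 1 called lower, 7 and 1 without the greater weight loss pool. Normexp with loess gave 2 adjusted limma calls in place of 0, 2 probes lower in the greater than in the less weight loss pool in place of 6, and medians of -0.056 for Cyp2c and 0.11 for Cyp3a. Centring gave -0.013 and 0.145 for these. With GALP in Cy5 alone the medians of Cyp2c, Cyp2d and Cyp3a were -0.069, 0.14 and 0.16 and 1 probe was higher in the greater than in the less weight loss pool. With GALP in Cy3 alone they were -0.0060, -0.033 and 0.11, and 3 probes were higher there in place of 0. So the Cyp2d median changed sign with the dye orientation. With 1 probe per gene the Cyp2a and Cyp3a medians were 0.49 and 0.16. Leaving out 1 pool gave medians of 0.51 to 0.64 for Cyp2a, -0.044 to -0.031 for Cyp2c, -0.045 to 0.035 for Cyp2d and 0.099 to 0.104 for Cyp3a. The cause of these shifts was not tested. Of 192 values of single probes under alternatives, 174 stayed called or uncalled as before, 18 gained a call and 0 lost one or changed sign. Only A_52_P289091 of Cyp2b13 and the Por probe had a call that could be lost. A limma fit with 1 pool left out has no residual degree of freedom and was not run. No paired analysis was possible because the labels carry no replicate numbers, and each array already sets GALP against control. The processed signals of the Cyp2b10, Cyp2g1 and Cyp2u1 probes with signal were between 58.5 and 427, which limits the precision of their ratios.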
